A study of Danio rerio with 16 samples.

Results

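The mitochondrial ribosomal protein genes of the zebrafish are the genes whose symbols start with mrpl (large subunit) or mrps (small subunit) followed by a digit. They were found by that name alone. Of 75 such symbols in the RefSeq gene table, 56 were matched to an entry of the liver expression table, 32 named mrpl and 24 named mrps, among 33715 genes above 0 in at least 1 library. The other 19 symbols, which include mrpl2, mrpl45, mrps12 and mrps18b, were not matched to an entry and are not analysed here.

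The mitochondrial ribosome translates the few proteins that mitochondrial DNA encodes, all of them subunits of the respiratory chain and ATP synthase. Its RNA comes from the mitochondrial genome, whereas its proteins are made from nuclear genes in the cytosol and imported. Hepatocytes are rich in mitochondria, and the many proteins of both subunits have to be supplied together for the particle to assemble.

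The data were RNA-seq of 16 liver libraries from zebrafish of the AB strain (wild-type, WT) and of 3 transgenic types named HBx(p53-), HBx,Src(p53-) and Src(p53-). The transgenes, hepatitis B virus X antigen and src, stood under the hepatocyte promoter of fabp10a in fish with a p53 mutation, so every transgenic group also differed from WT in p53. Fish were 3 months old at the start and were fed for 8 weeks. The normal diet (NOR) was 0.5 ml of Artemia 1 time daily, overfeeding (DIO) was 2 ml 3 times daily, and the high-fat diet (FAT) was 0.5 ml of Artemia 1 time daily with high-fat food 3 times daily. All groups were also given powdered feed 1 time daily. Each genotype had 2 NOR libraries. HBx,Src(p53-) had 2 DIO libraries and no FAT library, and each of the other genotypes had 1 of either. DIO and FAT together are called obesity below. The study's description counts as many fish as RNA-seq libraries, so a library was taken as a single fish. The study used both sexes and reports that they differed in their response to diet. Sex was not part of the comparisons here, so the groups may differ in it. The p-values measure the spread between libraries within groups. In the obesity groups of WT, HBx(p53-) and Src(p53-), that spread also holds any difference between DIO and FAT. For the diet difference common to all genotypes, fitted with additive terms, the spread also holds differences between genotypes in their response to diet.

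Values are FPKM, sequenced fragments relative to transcript length and to all mapped fragments, and can therefore be compared between genes. The sum of FPKM per library ran from 812158 to 1218150, with 20342 to 23001 genes above 0. The study's supplement lists the reads of each library, but FPKM values hold no fragment counts per gene, so no counting error is given. Of 15 hepatocyte markers 8 were matched, and their summed FPKM was between 13539 and 45025 in every library, with none under 1 FPKM everywhere. Zebrafish src, the gene whose transgene marks 2 of the genotypes, was at 0 to 4.24 FPKM in the WT and HBx(p53-) libraries and at 3.47 to 47.3 FPKM in the libraries of both Src genotypes. In the HBx,Src(p53-) DIO libraries it was at 3.47 and 4.34 FPKM, within or next to the range without the transgene. Whether reads of the transgene were counted in that entry was not stated. In tissue of mixed cells, fewer cells of a type and less RNA per cell cannot be told apart.

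The mitochondrial ribosomal protein genes were detected throughout. All 56 genes were above 0 in all 16 libraries, and 53 of them averaged 1 FPKM or more. Their mean levels ran from 0.619 FPKM to 97.0 FPKM, a 157-fold range, with a median of 6.92 FPKM. Together they made up 0.0358% to 0.125% of the summed FPKM of a library.

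The highest mean belonged to mrpl57, a large-subunit protein specific to mitochondria, at 97.0 FPKM. It was followed by mrps11, a small-subunit protein with a bacterial counterpart, at 43.1 FPKM, and by mrpl38, a protein of the central protuberance of the large subunit, at 42.4 FPKM. Next stood mrps2, again with a bacterial counterpart, at 37.8 FPKM and mrpl15 at 37.0 FPKM. The range of these genes was wide: mrpl57 lay between 22.7 and 208 FPKM and mrps11 between 11.6 and 85.7 FPKM, so most neighbours in this order overlapped. The gene mrpl38 varied least of the 56, by 2.60 times between its lowest library (28.1 FPKM) and its highest (73.0 FPKM).

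The lowest means belonged to mrps23 (0.619 FPKM), mrpl22 (0.872 FPKM), mrps18a (0.915 FPKM), mrps28 (1.24 FPKM) and mrps33 (1.34 FPKM). The protein of mrpl22 lines the exit tunnel of the large subunit, and that of mrps28 is a small-subunit counterpart of a bacterial protein. The gene mrps23 also varied most, by 20.4 times, from 0.0798 FPKM in the HBx(p53-) FAT library to 1.63 FPKM in HBx,Src(p53-) DIO replicate 2. Subunits of 1 particle were thus listed at levels over 100 times apart, and whether each entry covered all transcripts of its gene was not tested.

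As a whole the 56 genes moved up and down from library to library. The median over the genes was 4.37 and 11.02 FPKM in the WT NOR libraries, 5.54 FPKM in WT DIO and 6.25 FPKM in WT FAT. In HBx(p53-) it was 4.003 and 5.71 FPKM under NOR, 5.84 FPKM under DIO and 2.74 FPKM under FAT. The HBx(p53-) FAT library was the lowest of all 16, and 38 of the 56 genes had their lowest value there.

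In Src(p53-) the median was 6.96 and 12.98 FPKM under NOR, against 4.13 FPKM under DIO and 4.63 FPKM under FAT. In HBx,Src(p53-) it was 9.30 and 6.33 FPKM under NOR and 10.5 and 8.16 FPKM under DIO. Src(p53-) NOR replicate 2 was the highest library, and 23 genes had their highest value in it. The highest and lowest libraries differed 4.74 times in this median. They also had the largest and the smallest sum of FPKM, 1218150 and 812158. The share of all genes with their highest or lowest value in these libraries is not given. As a share of the summed FPKM, the members were highest in WT NOR replicate 2 (0.125%, against 0.111% in Src(p53-) NOR replicate 2). That share was lowest in the HBx(p53-) FAT library (0.0358%).

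**Figure D1:**
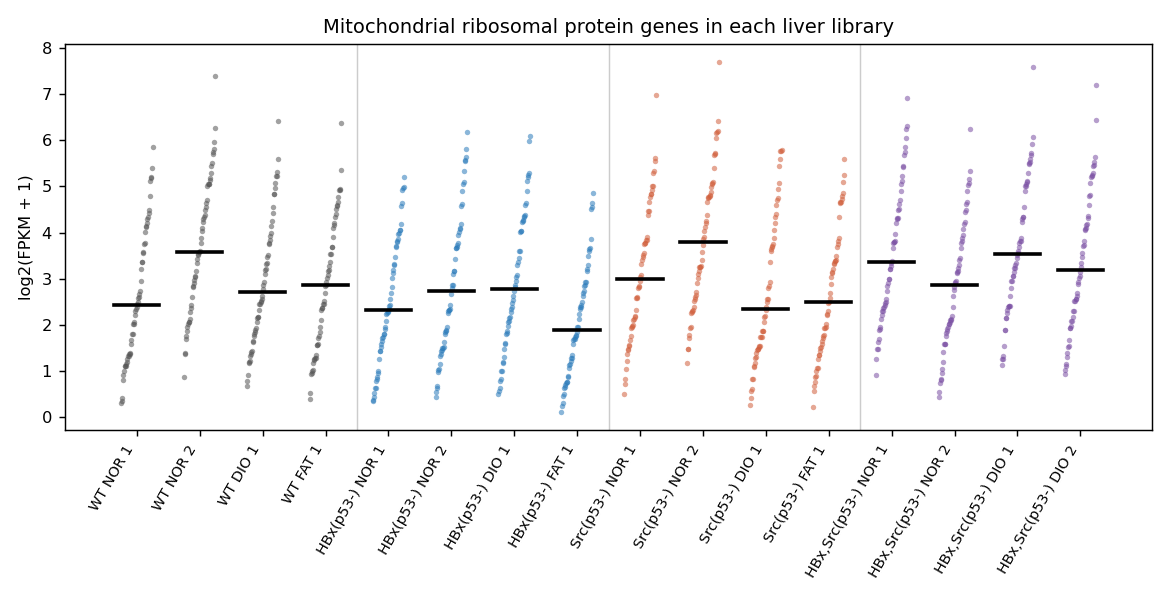
Levels of the 56 mitochondrial ribosomal protein genes in each of 16 liver libraries, as log2(FPKM + 1). Each point is 1 gene, sorted from low to high within its library, and the black bar is the median, which is lowest in HBx(p53-) FAT (2.74 FPKM) and highest in Src(p53-) NOR replicate 2 (12.98 FPKM).

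Libraries of the same group, meaning 1 genotype under NOR or under obesity, could differ about as much as groups did. In WT NOR replicate 2, 54 of the 56 genes were higher than in replicate 1, by a median of 2.54 times. In HBx(p53-), where the obesity libraries were on different diets, the DIO library was above the FAT library for 55 genes, by a median of 2.16 times. Src(p53-) NOR replicate 2 exceeded replicate 1 in 55 genes, by a median of 1.75 times. The share of all genes that differed in the same direction in these pairs of libraries is not given. The spread of the library medians within groups was 0.46 on the log2 scale (pooled SD over 8 groups of 2). This spread includes any difference between DIO and FAT in the obesity groups of WT, HBx(p53-) and Src(p53-).

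The median level of genes named mrpl was above that of genes named mrps in 16 of 16 libraries. On the scale of log2(FPKM + 1) it was higher by 0.27 to 0.82. The same genes were compared in every library, so the libraries do not repeat this difference independently, and it was not tested. The levels of the subunits overlapped, and mrps11 and mrps2 had among the highest means of all members. The upper quartile was higher for mrps names in HBx,Src(p53-) NOR replicate 2 and in both DIO libraries of that genotype. In every other library it was higher for mrpl names. The names are not fully true to the subunits, since mrps18a and mrps30 encode proteins that sit in the large subunit. The gene mrps18a, related to a bacterial small-subunit protein, was between 0.276 and 1.81 FPKM, and mrps30 was between 2.43 and 11.6 FPKM.

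The heat map shows the same libraries gene by gene. Most genes of both subunits are red in WT NOR replicate 2 and Src(p53-) NOR replicate 2 and blue in HBx(p53-) FAT.

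**Figure D2:**
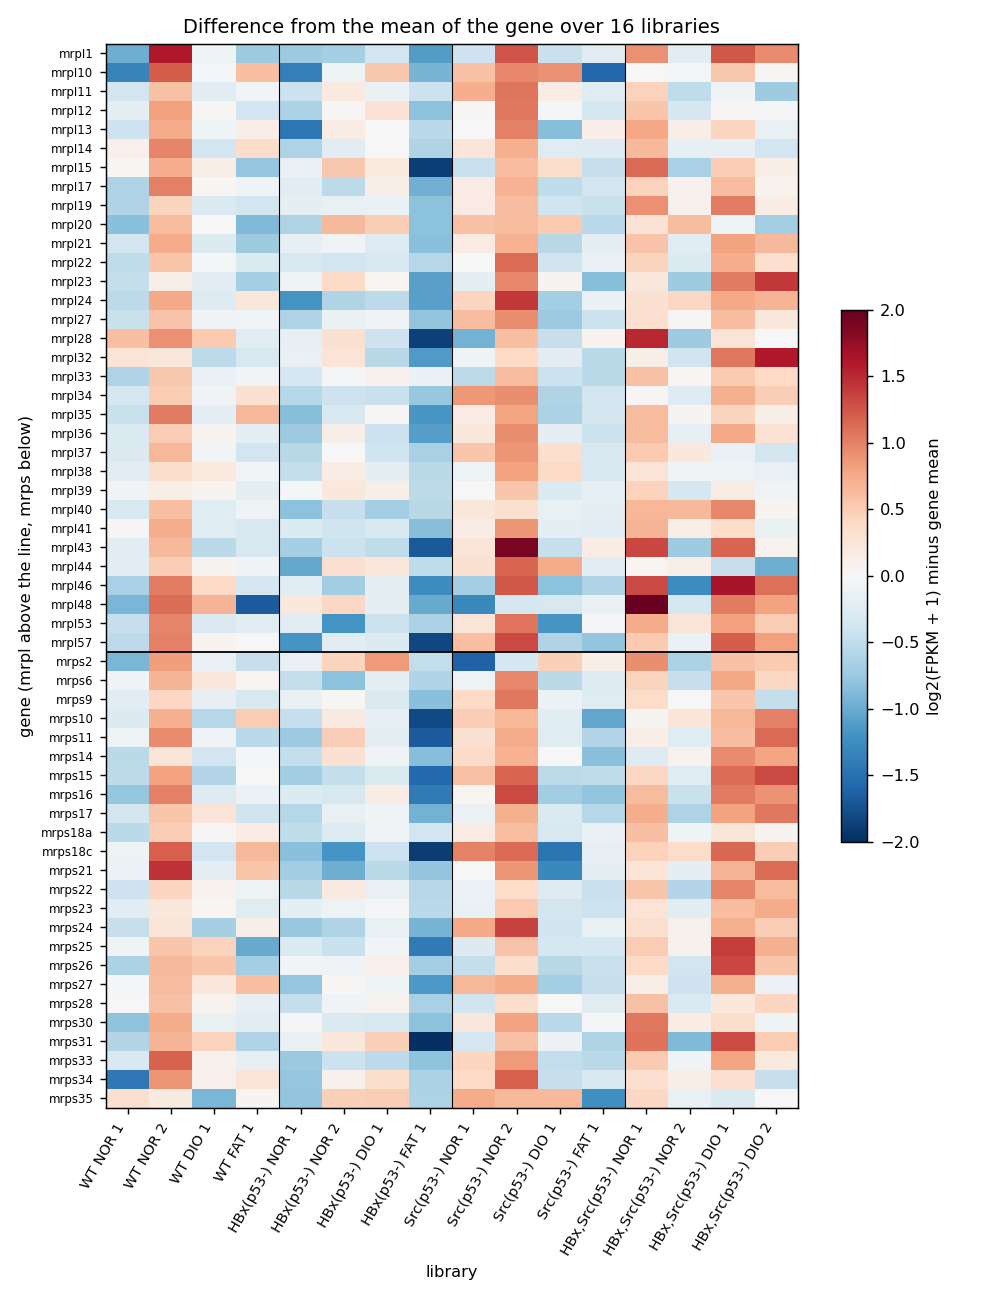
Difference of each of the 56 genes (rows) from its own mean over 16 libraries (columns), on the scale of log2(FPKM + 1), red above and blue below the mean, with the darkest tones standing for 2 or more. The columns HBx(p53-) FAT (38 genes at their lowest) and Src(p53-) NOR replicate 2 (23 genes at their highest) stand out in both subunits.

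Over the 16 libraries, the 1540 pairs of these genes had a median Pearson r of 0.66 on the log2 scale, and 1527 pairs were above 0. Pairs within the large subunit (median r = 0.65), within the small subunit (0.68) and across subunits (0.66) were alike. For comparison, pairs of named genes averaging 1 FPKM or more had a median r of 0.17, pairs of cytosolic ribosomal protein genes 0.53, and pairs of respiratory chain genes 0.57. These are descriptions over 16 libraries that share 8 groups and differ in their sum of FPKM, and no test was made of them. The median of the members had an r of 0.62 with the sum of FPKM of a library and of 0.75 with its number of genes above 0, and the part of either in these values was not tested.

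A few members followed the others less. The r of a gene with the median of the other 55 was lowest for mrps2 (0.30), mrpl44 (0.36), mrps35 (0.39), mrpl48 (0.43) and mrpl20 (0.46). It was highest for mrpl57 (0.96), mrps16 (0.94) and mrpl27 (0.94). The outlying genes did not form 1 group: mrps2 and mrpl48 had an r of 0.76 with each other, mrpl20 and mrpl44 of 0.77, but mrpl44 and mrpl48 of -0.12. They were not the genes of lowest level either, with means between 10.9 and 37.8 FPKM.

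**Figure D3:**
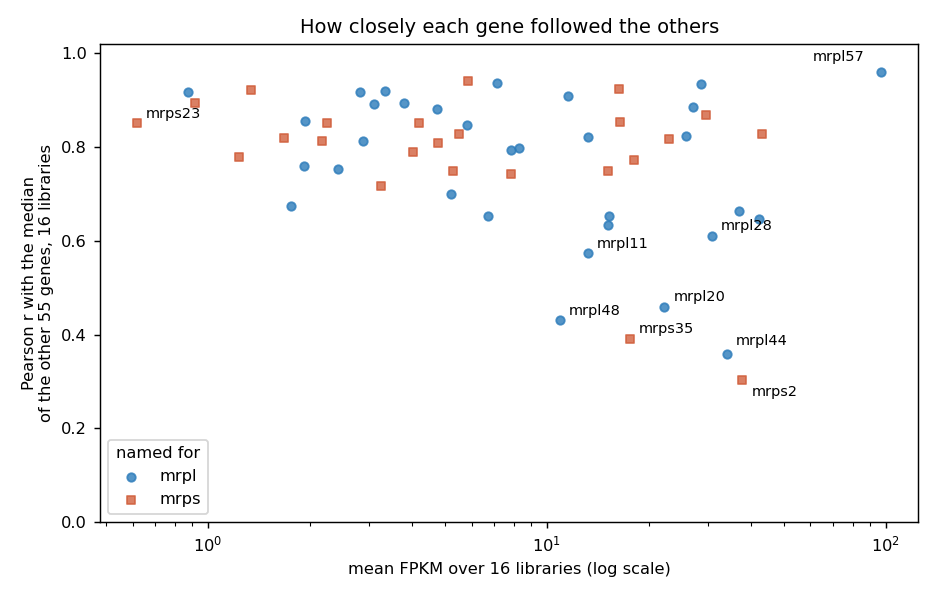
Mean FPKM of each gene (log scale) against its Pearson r with the median of the other 55 genes over 16 libraries, with circles for mrpl and squares for mrps names. Most genes lie above 0.6, and mrps2 (0.30), mrpl44 (0.36), mrps35 (0.39), mrpl48 (0.43) and mrpl20 (0.46) lie lowest.

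Only 1 pair of members are next to each other in the RefSeq gene order, mrps11 and mrpl46, with an r of 0.69. That order was taken from an assembly other than the one the reads were aligned to. Their entries were numbered consecutively by the assembler. Whether the 2 genes overlap was not examined. Whether reads were assigned by strand was not stated, so any reads shared by the 2 genes cannot be told apart.

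The first question of the design was what the obesity diets did in each genotype. Differences are of log2(FPKM + 1), obesity minus NOR, from limma fitted over all 33715 genes with Benjamini-Hochberg adjustment, and are given with standard errors. The study's own rule for differentially expressed genes was a fold of at least 2. Here a log2(FPKM + 1) difference of at least 1, called 2-fold below, was counted beside the test. It was counted for the 53 members and all 12317 genes averaging 1 FPKM or more. At low FPKM this asks for more than 2-fold in FPKM. With 0.1 added in place of 1, 28 of 56 members in place of 16 were 2-fold lower in Src(p53-). In HBx,Src(p53-) 11 in place of 4 were 2-fold higher. For HBx(p53-) against WT, 10 in place of 3 were lower. These counts are given without the share of all genes in that setting.

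Under the obesity diets, the mitochondrial ribosomal protein genes were lower in Src(p53-) livers, where 54 of 56 had a negative difference. The median difference was -0.82, against -0.34 over the 12317 genes, of which 68.1% were negative. Both obesity libraries lay below both NOR libraries for 37 of 53 members, a share of 69.8%, whereas 35.6% of the 12317 genes did so. By fold, 16 of the 53 members were at least 2-fold lower (17.8% of all genes), which is 30.2% of them, and 1 was at least 2-fold higher (6.17%).

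No member passed the adjusted test in Src(p53-), where 0.0771% of all 33715 genes did, and the smallest adjusted p (limma) was 0.318, for mrpl34. An unadjusted p under 0.05 was reached by 10 of 53 members, all lower, against 9.15% of genes. Either diet alone was 1 library against the same 2 NOR libraries, so the 2 values are not independent. The difference was present in both, with a median of -0.75 for DIO and -0.84 for FAT. It was -1.14 without NOR replicate 1 and -0.50 without NOR replicate 2, with 36 and 9 genes of 56 at least 2-fold lower. Counts with libraries left out or under other scalings, here and below, lack the share of all genes in that setting unless it is printed. The same holds for counts of positive or negative members printed without such a share. None of these counts is therefore to be read as particular to the members.

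The largest negative difference was that of mrps18c, a small-subunit protein that corresponds to a bacterial one. It was at 27.8 and 30.7 FPKM in the Src(p53-) NOR libraries, 4.25 FPKM under DIO and 11.9 FPKM under FAT. The groups did not overlap, and the difference was -1.87 ± 0.64 (SE, adjusted p = 0.522, limma).

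The most abundant member, mrpl57, was at 126 and 208 FPKM under NOR, 53.8 FPKM under DIO and 47.3 FPKM under FAT. The 2 NOR values were over 2 times the obesity values, with a difference of -1.66 ± 0.61 (adjusted p = 0.564, limma). The third, mrps16, had 5.10 and 13.9 FPKM under NOR, 2.67 FPKM under DIO and 2.46 FPKM under FAT, a difference of -1.42 ± 0.68 (adjusted p = 0.567, limma). Like mrps18c, mrps16 encodes a small-subunit protein with a bacterial counterpart.

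Against this direction stood 2 genes. The gene mrps2 was at 10.4 and 26.4 FPKM in the NOR libraries of Src(p53-), 47.3 FPKM under DIO and 36.7 FPKM under FAT, a difference of 1.27 ± 0.71 (adjusted p = 0.627, limma). The gene mrpl48, a protein of the central protuberance, had 2.91 and 6.52 FPKM under NOR, 6.67 FPKM under DIO and 7.70 FPKM under FAT, with 0.59 ± 0.92. Neither difference passed the test, and both genes are among those that followed the other members least.

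By place in the ribosome, the 4 stalk genes had a median difference of -1.03 in Src(p53-), and all 4 were negative. The stalk recruits translation factors, and its protein mrpl12 was at 12.6 and 26.9 FPKM under NOR, 12.1 FPKM under DIO and 9.60 FPKM under FAT. The 6 genes around the exit tunnel had a median of -0.81, and the 5 of the central protuberance of -0.44. The 13 small-subunit genes with a bacterial counterpart had a median of -0.96, and the 9 specific to mitochondria of -0.59. These groups were small and were not tested against each other.

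In HBx,Src(p53-) livers, which were only overfed, the sign of the median was the other way. The median difference was 0.29, 38 of 56 members were positive, and over the 12317 genes the median was -0.10. Both DIO libraries lay above both NOR libraries for 20 of 53 members (37.7%), where 22% of genes did so. At least 2-fold higher were 4 of 53 members (13% of genes), and 0 were at least 2-fold lower (14.7%). No member passed the adjusted test, which 0.335% of genes passed, with a smallest adjusted p of 0.153 (limma), and 2 of 53 members were higher at an unadjusted p under 0.05 (7.73% of genes).

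This median depended on single libraries and on scale. It was -0.10 without NOR replicate 2, 0.05 without DIO replicate 1 and 0.60 without NOR replicate 1. With every library scaled to the same sum it was 0.05, and 11 of 53 members (20.8%) then lay above both NOR libraries and 9 (17.0%) below, where 16.5% of the 12317 genes lay above and 37.8% below. With quantile normalization the median was 0.41, with 40 of 56 positive and 6 at least 2-fold higher. The number at least 2-fold higher was 17 of 56 without NOR replicate 1, 9 without DIO replicate 2 and 2 without NOR replicate 2.

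The gene with the smallest p here was mrpl32, a large-subunit protein of bacterial descent. It was at 14.8 and 10.01 FPKM in the NOR libraries and at 29.1 and 43.2 FPKM in the DIO libraries, which were its 2 highest of all 16. The difference was 1.47 ± 0.36 (adjusted p = 0.153, limma). In the other genotypes mrpl32 differed the other way, by -0.53 ± 0.36 in Src(p53-), -0.90 ± 0.36 in HBx(p53-) and -0.67 ± 0.36 in WT.

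At the exit tunnel, mrpl23 was at 7.04 and 3.18 FPKM under NOR and 13.05 and 17.34 FPKM under DIO, with 1.47 ± 0.56 (adjusted p = 0.379, limma). The gene mrps15, with a bacterial counterpart, had 18.9 and 11.6 FPKM under NOR and 31.3 and 36.1 FPKM under DIO, with 1.12 ± 0.53 (adjusted p = 0.466, limma). For both genes the DIO libraries stood clear of the NOR libraries.

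Lower under DIO in HBx,Src(p53-) were mrpl20, mrpl44 and mrpl37. The gene mrpl20, which binds the large ribosomal RNA in bacteria, had 25.1 and 31.9 FPKM under NOR and 19.2 and 12.3 FPKM under DIO, with -0.84 ± 0.65 (adjusted p = 0.745, limma). The gene mrpl44 had 32.2 and 34.7 FPKM under NOR and 22.6 and 15.6 FPKM under DIO, with -0.80 ± 0.54 (adjusted p = 0.659, limma). The gene mrpl37 had 2.76 and 2.03 FPKM under NOR and 1.40 and 1.03 FPKM under DIO, with -0.61 ± 0.41 (adjusted p = 0.655, limma). None of these 3 differences was larger than 2 standard errors.

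By subunit, the median difference over genes named mrpl was 0.10, with 19 of 32 positive, and over genes named mrps it was 0.62, with 19 of 24 positive. The subunits overlapped, with mrpl32 and mrpl23 of the large subunit at the top, and the difference between them was not tested.

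**Figure D4:**
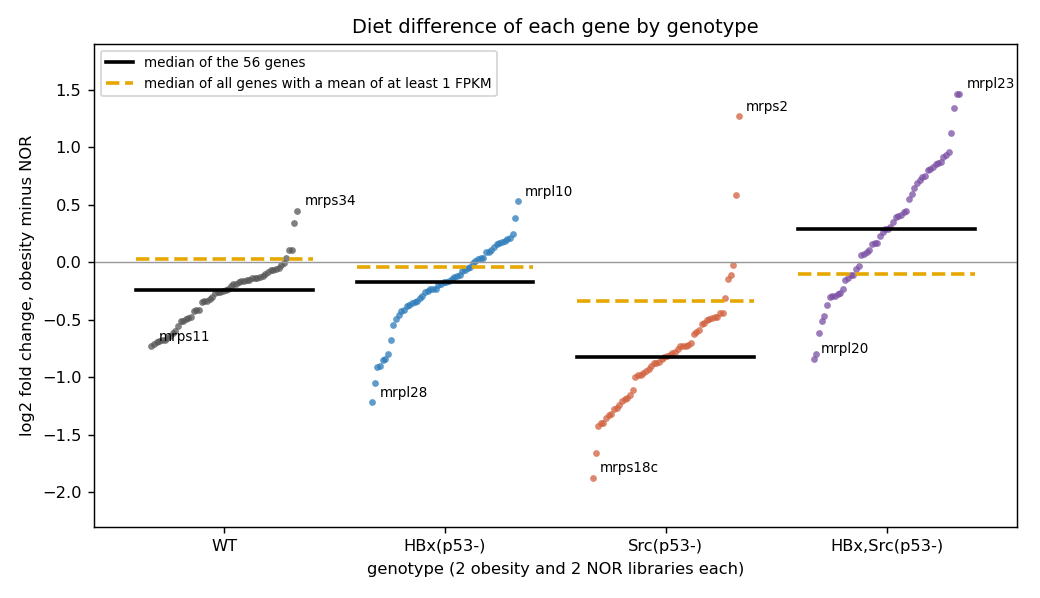
Difference of log2(FPKM + 1) between obesity and NOR libraries for each of the 56 genes (points, sorted) in each genotype, with the median of the 56 genes (black) and that of all 12317 genes averaging 1 FPKM or more (dashed). The black bars stand at -0.82 in Src(p53-), 0.29 in HBx,Src(p53-), -0.17 in HBx(p53-) and -0.24 in WT.

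The contrast between the 2 Src genotypes was then fitted directly, a comparison chosen after the values had been seen. The diet difference of HBx,Src(p53-) minus that of Src(p53-) had a median of 1.27 over members, against 0.23 over the 12317 genes, and was positive for 51 of 56. It was at least 2-fold for 29 of 53 members (23.3% of genes), and 15 of 53 had an unadjusted p under 0.05 in this direction (7.24% of genes). No member passed the adjusted test, as 0.0623% of genes did, with a smallest adjusted p (limma) of 0.265. With every library scaled to the same sum, the median was 0.86 and 43 of 56 members were positive. At least 2-fold were then 22 of 56 members in place of 31. An unadjusted p under 0.05 (limma) was reached by 7 of 56 in place of 16. The median was 0.78 without Src(p53-) NOR replicate 2 and 0.77 without HBx,Src(p53-) NOR replicate 2. It was 1.13 with the DIO libraries alone. The number at an unadjusted p under 0.05 (limma) fell below 16 of 56 when replicate 2 of either NOR group was left out.

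The gene with the smallest p in this contrast was mrpl34, which had the smallest adjusted p of Src(p53-) as well. It was at 3.99 and 4.22 FPKM in the Src(p53-) NOR libraries, 0.791 FPKM under DIO and 1.09 FPKM under FAT. In HBx,Src(p53-) it was at 1.79 and 1.28 FPKM under NOR and at 3.47 and 2.85 FPKM under DIO. The 2 genotypes thus crossed, and their diet differences were 2.12 ± 0.50 apart (adjusted p = 0.265, limma).

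In WT the differences were small. The median was -0.24 (0.03 over the 12317 genes), and 51 of 56 members were negative. Both obesity libraries lay below both NOR libraries for 5 of 53 members, against 10.1% of genes. No member was 2-fold higher (6.9% of genes) or 2-fold lower (4.88%), none passed the adjusted test (0.0712% of genes), and none had an unadjusted p under 0.05. The 2 NOR libraries decided the sign: the median was -0.77 without replicate 1, which was low, and 0.27 without replicate 2, which was high. Without replicate 1, 16 of 56 members were at least 2-fold lower, a count given without the share of all genes in that setting.

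The 3 largest differences among WT members that did not overlap were those of mrps35, mrpl32 and mrpl41. The gene mrps35, specific to mitochondria, was at 20.5 and 18.6 FPKM under NOR, 8.14 FPKM under DIO and 16.8 FPKM under FAT, with -0.68 ± 0.65. The gene mrpl32 was at 16.5 and 16.1 FPKM under NOR, 9.14 FPKM under DIO and 10.6 FPKM under FAT, with -0.67 ± 0.36. Its NOR libraries lay close together. The gene mrpl41 was at 5.62 and 9.70 FPKM under NOR, 4.48 FPKM under DIO and 4.19 FPKM under FAT, with -0.66 ± 0.39. The adjusted p (limma) of all 3 was 1.00.

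In HBx(p53-) the median difference was -0.17 (-0.04 over the 12317 genes), with 39 of 56 negative. Both obesity libraries were below both NOR libraries for 6 of 53 members, against 16% of genes. None was 2-fold higher (4.77% of genes), and 2 were 2-fold lower (6.11%). No member passed the adjusted test (0.0237% of genes), and 0 of 53 were higher and 1 of 53 lower at an unadjusted p under 0.05 (1.89% of genes lower). The number at least 2-fold lower was 12 of 56 without the DIO library. The 2 diets disagreed, with a median of 0.28 for DIO alone and -0.59 for FAT alone, the latter resting on the lowest library of the series.

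The 2-fold lower members in HBx(p53-) were mrpl15 (-1.05) and mrpl28. The gene mrpl28 was at 23.8 and 33.3 FPKM under NOR, 19.8 FPKM under DIO and 6.60 FPKM under FAT, with -1.22 ± 0.75 (adjusted p = 1.00, limma). The gene mrpl48 had 10.1 and 11.7 FPKM under NOR, 7.42 FPKM under DIO and 3.74 FPKM under FAT, with -0.91 ± 0.92. The gene mrpl32 had 12.2 and 16.3 FPKM under NOR, 8.86 FPKM under DIO and 5.64 FPKM under FAT, with -0.90 ± 0.36 (adjusted p = 0.995, limma). In each of the 3 genes the FAT library was the lower of the obesity pair.

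**Figure D5:**
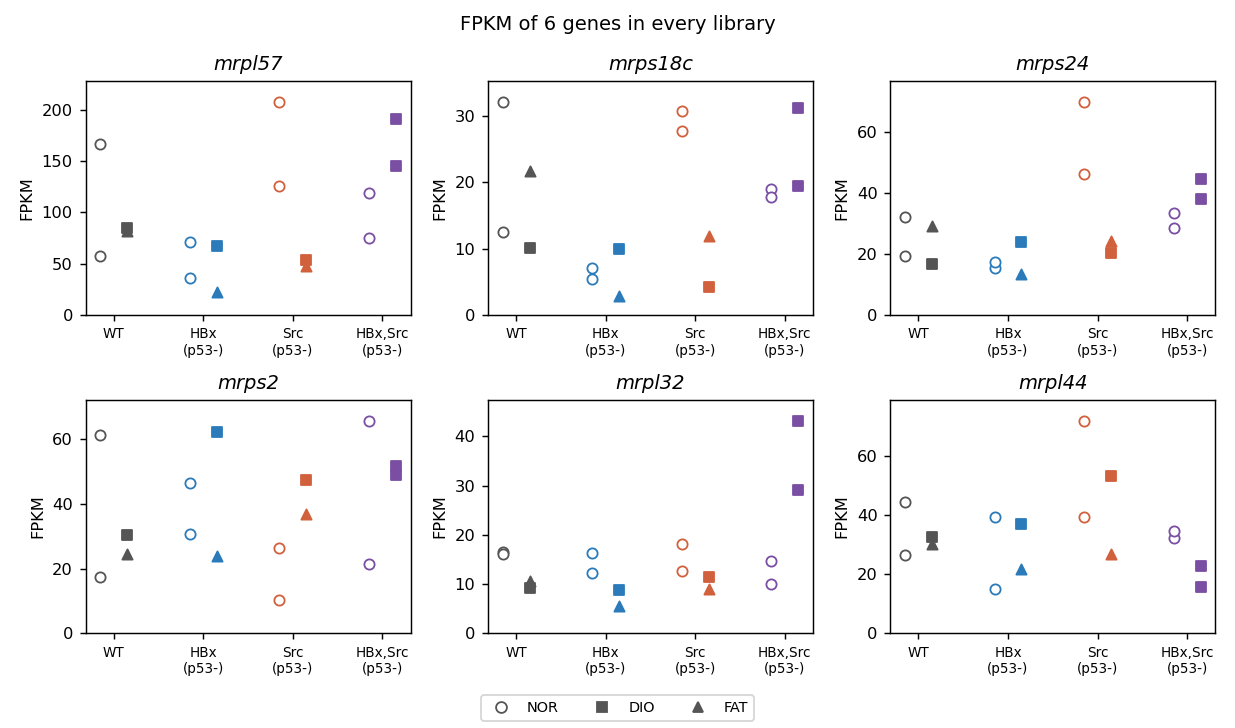
FPKM of 6 members in every library by genotype, with open circles for NOR, filled squares for DIO and filled triangles for FAT. In Src(p53-) the obesity libraries of mrpl57, mrps18c and mrps24 lie below the NOR libraries and those of mrps2 above, while mrpl32 is highest in the 2 DIO libraries of HBx,Src(p53-) (29.1 and 43.2 FPKM).

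Over all genotypes together, the common diet difference had a median of -0.25 (-0.10 over the 12317 genes), with 52 of 56 members negative. The adjusted test called 0% of genes, members included, and 3 of 53 members were lower at an unadjusted p under 0.05 against 4.7% of genes. The 3 were mrpl37, mrpl41 and mrps9. The lowest, median and highest FPKM of mrpl37 were 0.778, 2.40 and 3.82 in the 8 NOR libraries and 0.676, 1.07 and 2.33 in the 8 obesity libraries, with -0.49 ± 0.19 (adjusted p = 0.822, limma).

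The gene mrpl41 was at 3.94, 6.13 and 10.98 FPKM under NOR and 2.59, 4.52 and 7.36 FPKM under obesity, with -0.48 ± 0.19. The gene mrps9 was at 1.60, 2.49 and 5.27 FPKM under NOR and 0.698, 1.52 and 3.46 FPKM under obesity, with -0.47 ± 0.21. The ranges overlapped for all 3 genes. The 4 positive members included mrps2 (0.36 ± 0.35), mrps26 (0.05 ± 0.29) and mrps22 (0.04 ± 0.25), all within about 1 standard error of 0. With FAT libraries alone the median was -0.61, and with DIO libraries alone it was -0.11. It was -0.38 without WT NOR replicate 1, -0.14 without Src(p53-) NOR replicate 2 and -0.15 without WT NOR replicate 2. The number of members at an unadjusted p under 0.05 was 9 of 56 without HBx,Src(p53-) NOR replicate 2, 7 without WT NOR replicate 1, 6 without HBx(p53-) NOR replicate 1 and 5 without the HBx(p53-) DIO library.

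The diet difference of Src carriers, the 2 genotypes with the src transgene, minus that of the other genotypes had a median of -0.09 (-0.23 over the 12317 genes). No member was called (0.0356% of genes), and 1 of 53 was higher at an unadjusted p under 0.05 (5.29% of genes), mrpl32 with 1.26 ± 0.36 (adjusted p = 0.315, limma). By p, the next on the positive side were mrpl23 (0.81 ± 0.56) and mrps2 (0.95 ± 0.71). On the negative side were mrps34 (-1.06 ± 0.68), mrpl44 (-0.68 ± 0.54) and mrps18a (-0.49 ± 0.40). Averaging the 2 Src genotypes put together medians of opposite sign, of which that in HBx,Src(p53-) depended on single libraries, as given above.

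The second question was what the genotypes did. Src carriers were compared with the other genotypes over both diets, 8 libraries against 8. All carriers had the p53 mutation, whereas WT among the others did not. Against WT, the median over members was 0.04 in Src(p53-), 0.36 in HBx,Src(p53-) and -0.42 in HBx(p53-), as given below. All 56 members were higher on average in carriers, with a median difference of 0.39, and over the 12317 genes the median was 0.20 with 72.0% positive. No member was called (0.219% of genes), and none reached 2-fold. An unadjusted p under 0.05 was reached by 11 of 53 members in this direction, against 13.9% of genes. This number rested on single libraries, being 25 of 56 without WT NOR replicate 2 and 6 without WT NOR replicate 1.

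The members with the smallest p were mrps24, mrpl40 and mrpl24. The gene mrps24, the counterpart of a bacterial small-subunit protein, was at a lowest, median and highest of 20.2, 35.9 and 69.9 FPKM in carriers and 13.6, 18.3 and 32.2 FPKM in the others, with 0.80 ± 0.20 (adjusted p = 0.171, limma). The gene mrpl40, of the central protuberance, was at 1.42, 2.32 and 4.35 FPKM in carriers and 0.550, 1.104 and 3.16 FPKM in the others, with 0.64 ± 0.20 (adjusted p = 0.248, limma). The gene mrpl24, at the exit tunnel, was at 5.94, 13.9 and 28.6 FPKM in carriers and 3.84, 6.74 and 17.7 FPKM in the others, with 0.80 ± 0.25 (adjusted p = 0.249, limma). For all 3 genes the ranges overlapped.

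The number of positive members was 52 when every library was scaled to the same sum and 44 with quantile normalization, where the medians were 0.29 and 0.18. Marker genes of some other cells also had different ranges in these libraries, all of them overlapping. Of 6 leukocyte markers 5 were matched, and their summed FPKM was 20.1 to 64.6 in carriers and 2.23 to 23.4 in the others, with none under 1 FPKM everywhere. Of 7 ovary markers 6 were matched, at 0.0222 to 23.2 FPKM in carriers and 0 to 0.861 FPKM in the others. Of 15 exocrine pancreas markers 9 were matched, at 8.69 to 289 FPKM in carriers and 3.61 to 216 FPKM in the others, with cpa4 under 1 FPKM everywhere. Intestine markers (3 of 6 matched) reached less in carriers, at 132 to 675 FPKM against 106 to 997 FPKM. So did red blood cell markers (5 of 6 matched), at 311 to 638 FPKM against 226 to 779 FPKM. The log of the summed FPKM had an r with the members' median of 0.16 for leukocyte, 0.52 for ovary and -0.13 for exocrine pancreas markers. It was 0.25 for intestine and -0.06 for red blood cell markers. The part of these cells in the result was not tested.

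The 3 transgenic genotypes were each set against WT, with the 4 WT libraries in common, so these values are not independent of each other. HBx(p53-) livers were lower for 52 of 56 members, with a median of -0.42 (-0.11 over the 12317 genes). At least 2-fold lower were 3 of 53 members (5.42% of genes), namely mrps18c, mrps21 and mrpl57. No member was called (0.332% of genes), and 9 of 53 were lower at an unadjusted p under 0.05 (5.25% of genes). The median was -0.68 without WT NOR replicate 1 and -0.16 without WT NOR replicate 2, with 12 and 1 genes at least 2-fold lower of 56 and 19 and 1 at an unadjusted p under 0.05.

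The gene mrps18c was at 12.5, 32.1, 10.1 and 21.7 FPKM in the 4 WT libraries and at 7.11, 5.41, 9.93 and 2.91 FPKM in HBx(p53-). The 4 HBx(p53-) values were all below the 4 WT values, with -1.41 ± 0.45 (adjusted p = 0.373, limma). The gene mrpl57 was at 57.2, 167, 85.1 and 81.5 FPKM in WT and 35.8, 70.9, 67.6 and 22.7 FPKM in HBx(p53-), with -1.004 ± 0.43 (adjusted p = 0.629, limma). Here the ranges overlapped.

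Src(p53-) against WT had a median of 0.04 (0.06 over the 12317 genes). No member was called (0.205% of genes), and none had an unadjusted p under 0.05. HBx,Src(p53-) against WT had a median of 0.36 (0.23 over the 12317 genes), with 49 of 56 positive. At least 2-fold higher was 1 of 53 members (12.2% of genes), mrpl48 with 1.07. No member was called (1.11% of genes), and 2 of 53 were higher at an unadjusted p under 0.05 (14.9% of genes), mrpl19 (0.75) and mrpl32 (0.68 ± 0.25, adjusted p = 0.267, limma). Without WT NOR replicate 2 these numbers were 6 and 13 of 56. With quantile normalization the median was 0.10, with 33 of 56 positive. The HBx,Src(p53-) median was 0.09 at the lowest and 0.63 at the highest when single libraries were left out.

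Other genes of mitochondrial translation were looked up from lists written by name. Of 8 further components of or partners at the mitochondrial ribosome 5 were matched, dap3, chchd1, aurkaip1, ptcd3 and the inner-membrane insertase oxa1l. Their median had an r of 0.94 with that of the members over 16 libraries. In Src(p53-) their median diet difference was -0.69, with 4 of 5 negative, against 0.10 in HBx,Src(p53-). None was called in either direction.

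The gene chchd1, a small-subunit protein, was at 3.76 and 5.28 FPKM in the Src(p53-) NOR libraries, 1.54 FPKM under DIO and 2.02 FPKM under FAT, with -0.98. In HBx,Src(p53-) it was at 3.52 and 2.45 FPKM under NOR and 5.81 and 3.73 FPKM under DIO, with 0.52. The gene dap3, which encodes a GTP-binding protein of the small subunit, had overlapping groups in both genotypes, at 15.96 and 69.2 FPKM under NOR against 30.1 and 13.1 FPKM under DIO and FAT in Src(p53-) (-0.72 ± 0.94) and at 40.3 and 14.5 FPKM under NOR against 18.2 and 15.99 FPKM under DIO in HBx,Src(p53-) (-0.49 ± 0.94). Its NOR libraries differed more than 2 times in both genotypes.

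Of 17 listed translation factors and messenger RNA-binding partners 12 were matched, with an r of 0.93 between their median and that of the members. In Src(p53-) 11 of the 12 were negative, with a median of -0.59, and none was called. At least 2-fold lower were 5 of them, where 17.8% of the 12317 genes were. The elongation factor gene tufm was at 23.9 and 38.7 FPKM under NOR there, 12.4 FPKM under DIO and 11.4 FPKM under FAT, with -1.28. In HBx,Src(p53-) it was at 22.3 and 15.7 FPKM under NOR and 36.95 and 29.8 FPKM under DIO, with 0.80. In both genotypes its groups did not overlap, in opposite directions.

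The gene lrpprc, whose protein stabilizes mitochondrial messenger RNA in mammals, was lower in both, with -0.64 ± 0.51 in Src(p53-) against -0.96 ± 0.51 in HBx,Src(p53-). It had an r of 0.46 with the members' median. Of 11 listed genes of mitochondrial DNA replication and transcription 6 were matched, with an r of 0.62. The gene tfam, which packages mitochondrial DNA, had a diet difference of -0.68 ± 0.38 in Src(p53-), and its HBx,Src(p53-) value was -0.37 ± 0.38.

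Assembly factors followed less closely. Of 31 listed assembly factors and ribosomal RNA-modifying enzymes 17 were matched, with an r of 0.69, a median diet difference of -0.20 under Src(p53-) against 0.54 under HBx,Src(p53-). Of 20 mitochondrial aminoacyl-tRNA synthetases and related genes, which charge the transfer RNA of the organelle, 11 were matched, with an r of 0.31 and medians of -0.18 and 0.41. In neither list was a gene called in these 2 contrasts.

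The genes of mitochondrial DNA itself were not analysed here. The nuclear subunits of the respiratory chain and ATP synthase (81 genes) had an r of 0.78 with the members' median, with medians of -0.63 (Src(p53-)) against 0.13 (HBx,Src(p53-)). The cytosolic ribosomal protein genes (66 genes) had an r of 0.63 and medians of -0.39 and 0.32. Both lists had the same signs as the mitochondrial ribosomal protein genes, with none of their genes called.

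The 10 other named genes whose levels were most like the members' median, out of those with a mean of at least 1 FPKM, had an r of 0.94 to 0.97 over 16 libraries. They were zgc:91910, tomm70a, stip1, snrpd2, rab2a, ppp5c, tufm, sap18, timm8b and gng12a. Of these, tomm70a (0.96) and timm8b (0.95) encode proteins of mitochondrial import, and stip1 (0.96) a cochaperone. Others without a role given here were about as alike, such as snrpd2 (0.96) and rab2a (0.95), and a role shared by the 10 genes was not tested. The gene tomm70a was at 12.4 and 18.9 FPKM in the Src(p53-) NOR libraries, 6.38 FPKM under DIO and 7.59 FPKM under FAT.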

How the data were processed

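The authors aligned reads to GRCz10 (danRer10) with HISAT2 2.1.0 and assembled transcripts with StringTie 1.3.4d and took expression with Ballgown, per the submitters' processing notes and the paper's methods, and the deposited values are FPKM, used as given. Gene entries of assembled genes were named through their RefSeq transcript names (11790 of 12235 matched a symbol in a table of another assembly). That table also gave the order of genes by start position, and no other use was made of its coordinates. The 0 unmapped columns leave 16 libraries. Depth is listed in the study's supplement and was not used here, since FPKM values hold no counts.

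Values were log2(FPKM + 1), tested with limma 3.58.1 in R 4.3.3 (lmFit, eBayes with trend, 8 groups; the common difference came from additive terms for genotype and diet), with Benjamini-Hochberg adjustment over 33715 genes and calls at adjusted p under 0.05. Summaries and figures were made in Python 3.11.15. Only the limma fit was tried on simulated data with planted differences, for some of the contrasts, and the other steps were not. Genes were named by rule: in each genotype up to 3 highest and 3 lowest non-overlapping differences, the 3 smallest p in each direction in 3 contrasts, the 5 highest and 5 lowest means, members at 0 or with adjusted p under 0.05 (there were none), and genes by role. The genes mrpl19, mrpl27, mrpl34, mrpl46 and mrps21 were named outside it, after their values were seen, as was the contrast of the 2 Src genotypes chosen. The members, lists and tests were chosen with earlier results of these data known.

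Alternatives were a pseudocount of 0.1, a filter at a mean of 1 FPKM, equal sums, quantile normalization, no trend, a replicate block, each diet alone and each library left out.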

Additional observations from a re-analysis of the deposited data

Results flagged for a closer look

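Among 204 groups of 4 or 8 libraries that were examined for a library far from the rest, 6 had one. Chance marks about 1 in 20 groups of independent values, but these groups share libraries, and no comparison with chance was made. Values are log2(FPKM + 1). In Src(p53-), the FAT library was lowest for mrps35 (2.89, the nearest of the other libraries at 4.75) and for mrpl20 (3.89, nearest 4.94). Src(p53-) NOR replicate 2 was highest for mrps26 (2.32, nearest 1.52). Among the 8 obesity libraries, HBx(p53-) FAT was lowest for mrpl28 (2.93, nearest 4.33), and HBx,Src(p53-) DIO replicate 1 was highest for mrpl40 (2.42, nearest 1.52). Within HBx,Src(p53-), DIO replicate 1 was highest for mrps18c (5.01, nearest 4.36).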

How the results depend on the processing

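No member was called in any of the 11 contrasts under any of the 24 alternatives that could be fitted for it (FAT alone could not be fitted for 5 contrasts that need an obesity library of HBx,Src(p53-), which had no FAT library), and the smallest adjusted p (limma) was 0.153 as reported and 0.0549 in an alternative. The median difference in Src(p53-) was negative throughout, from -1.14 to -0.50 with single libraries left out and -0.47 with quantile normalization. That of Src carriers against the others was 0.25 to 0.54 with single libraries left out, 0.18 with quantile normalization and 0.27 with DIO alone, and FAT alone was not run for it. The median changed sign with single libraries in WT (-0.77 to 0.27), HBx(p53-) (-0.59 to 0.28), HBx,Src(p53-) (-0.10 to 0.60), Src(p53-) against WT (-0.23 to 0.29) and the carriers' diet contrast (-0.32 to 0.15). The difference between the 2 Src genotypes was 0.77 to 1.58. The carriers' diet contrast was 0.10 with quantile normalization, and Src(p53-) against WT was -0.02 with equal sums and -0.03 with quantile normalization. The common difference of mrps26 was -0.10 to 0.18 with single libraries left out and -0.56 with FAT alone, and that of mrps22 was -0.14 to 0.13 and -0.36. The causes were not tested.

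Counts of 2-fold members in Src(p53-) ranged from 6 (quantile normalization) to 36 (without NOR replicate 1). The label numbers did not pair the libraries: differences between samples 1 and 2 correlated from -0.26 to 0.22 between groups, and the replicate block left the medians at -0.82 in Src(p53-) and 0.39 in carriers, with 0 members called and 8 in place of 11 carriers' members at an unadjusted p under 0.05. The number of fragments behind low values is not in the FPKM.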
